A study of Mus musculus with 26 samples.

Results

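The nuclear receptors Nr1i3 (CAR), Nr1i2 (PXR), Rxra, Hnf4a, Nr5a2 (LRH-1), Ppara, Nr3c1 (the glucocorticoid receptor) and Nr1h3 (LXR alpha), together with the aryl hydrocarbon receptor Ahr, were followed through 5 mouse liver experiments. They were chosen by name: each is the gene whose Ensembl identifier, without its version, maps to one of these symbols. All 9 were found among the 47643 genes of the count table, and none was chosen by its measured level. Messenger RNA was sequenced in 26 libraries, which form 10 groups and 5 comparisons of a treated or mutant group with its own control. The study's title concerns the induction of drug metabolism in cholestatic livers, in which bile drains poorly.

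In the first experiment, wild type C57BL/6J mice of 8 weeks, fed ad libitum, received either TCPOBOP, an agonist of mouse CAR, or corn oil, the vehicle (whole liver, 2 libraries each). The titles place these livers at 36 h after TCPOBOP and the source names at 6 h, so the time is uncertain. In the second, Fxr-/- Shp-/- mice were compared with wild type mice (C57BL/6J, 12 weeks, ad libitum, whole liver, 3 libraries each). The mutants, called double knockout below, lack the bile acid receptor gene Nr1h4 and the repressor gene Nr0b2. The labels name no Cre or cell type for the deletion. Another experiment compared C3H/HeN livers 48 h after partial hepatectomy (PHx), the surgical removal of part of the liver, with sham livers at 0 h (8 to 10 weeks, ad libitum, whole liver, 3 libraries each). The controls of that experiment thus differ from the operated mice in time as well as in surgery, and no genotype is given for either group. The fourth compared hepatocytes, the parenchymal cells of the liver, from wild type C57BL/6J mice on a 60% high fat diet with hepatocytes from chow-fed mice (16 weeks, 10 h fast, 2 libraries each). The fifth fed chow or a diet with cholic acid, a primary bile acid, to C57BL/6J mice (10 to 12 weeks, fasted for 8 to 10 h, whole liver, 3 libraries each). Both of its groups carry fl/fl Fxr and fl/fl Shp, and the labels name no Cre. The labels do not say that replicates came from separate animals, so p-values measure only the spread between these libraries.

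CAR and PXR are nuclear receptors that sense drugs and other foreign chemicals, pair with the retinoid X receptor RXR alpha on DNA and induce cytochrome P450 enzymes, transferases and efflux pumps. AHR is a receptor of another family that binds planar aromatic chemicals, pairs with ARNT and induces Cyp1 enzymes. HNF4 alpha and LRH-1 maintain hepatocyte and bile acid gene expression, and PPAR alpha, LXR alpha and the glucocorticoid receptor read out fatty acids, oxysterols and stress hormone.

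The genes lie apart in the genome (GRCm38, GENCODE M21 annotation; all are protein coding). Nr1i3 (ENSMUSG00000005677.14) spans chr1:171213970-171220701 on the plus strand, Nr1i2 (ENSMUSG00000022809.4) chr16:38248323-38294824 on the minus strand and Ahr (ENSMUSG00000019256.17) chr12:35497974-35535038 on the minus strand. Rxra (ENSMUSG00000015846.14, chr2:27676440-27762957) and Hnf4a (ENSMUSG00000017950.16, chr2:163506808-163572910) are on the plus strand, and Nr1h3 (ENSMUSG00000002108.10, chr2:91184061-91202834) is on the minus strand. Nr5a2 (ENSMUSG00000026398.14) spans chr1:136842571-136960448 on the minus strand, Ppara (ENSMUSG00000022383.13) chr15:85734983-85802819 on the plus strand and Nr3c1 (ENSMUSG00000024431.14) chr18:39410545-39519421 on the minus strand. The exons of Nr1i3 overlap those of Tomm40l, a mitochondrial import gene on the opposite strand, over 3304 of 4414 bases (74.9%). For Ahr 2.06% of exon bases overlap the opposite-strand gene Gm48236, and for Nr1h3 1.35% overlap the same-strand gene Gm13783; the other 6 share none.

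RefSeq start windows of GRCm38.p6, the 250 bases before an annotated gene start, were found for 7 of the 9 genes (11 windows, none for Ahr or Nr3c1). The windows shown are those of Nr1i3, which encodes the receptor that TCPOBOP activates, of Nr1i2, the one member called in both directions below, and of Nr5a2, whose product itself binds AGGTCA-type sites. Capitals mark exact matches to a searched motif on either strand.

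Nr1i3, chr1:171213720-171213969, plus strand: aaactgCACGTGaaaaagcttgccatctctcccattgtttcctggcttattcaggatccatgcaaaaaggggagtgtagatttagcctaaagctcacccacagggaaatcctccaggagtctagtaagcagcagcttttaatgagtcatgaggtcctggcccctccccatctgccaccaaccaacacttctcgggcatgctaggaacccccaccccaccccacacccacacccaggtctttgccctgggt
Nr1i2, chr16:38294825-38295074, minus strand: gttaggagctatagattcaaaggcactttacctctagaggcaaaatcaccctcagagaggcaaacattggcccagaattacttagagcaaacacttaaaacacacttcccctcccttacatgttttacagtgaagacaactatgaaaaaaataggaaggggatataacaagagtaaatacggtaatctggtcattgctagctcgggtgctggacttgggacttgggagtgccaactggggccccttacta
Nr5a2, chr1:136960449-136960698, minus strand: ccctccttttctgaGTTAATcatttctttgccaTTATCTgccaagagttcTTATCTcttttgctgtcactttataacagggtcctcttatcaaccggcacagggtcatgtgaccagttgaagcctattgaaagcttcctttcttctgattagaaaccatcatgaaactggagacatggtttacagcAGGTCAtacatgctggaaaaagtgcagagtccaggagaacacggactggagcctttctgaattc

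Over 32851 such windows of mouse genes, the nuclear receptor half-site AGGTCA (or TGACCT) was in 14.02%, the HNF4-type CAAAGTCCA in 0.384% and the E-box CACGTG in 6.02%. The D-box TTATGTAA was in 0.819%, the AHR core GCGTG in 28.2%, the GATA motif AGATAA in 9.99% and the HNF1 half-site GTTAAT in 6.43%. The Nr1i3 window held 1 E-box, which begins 244 bases before the gene start, and the Nr1i2 window held none of the 7 motifs. The Nr5a2 window shown, the most upstream of that gene, held AGGTCA at 64 bases, the GATA motif in reverse at 217 and 200 bases, and GTTAAT at 236 bases before the start. The other window of Nr5a2 held 1 AHR core and no other searched motif. A window of Rxra, not shown, held 2 matches to the AGGTCA half-site. A match is a description of letters, not of a bound site.

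Sequencing assigned 13949059 to 70367874 reads per library to genes. A floor of 3 reads, set by choice, equals 0.0426 to 0.215 CPM, the read count scaled to library size. Every member had at least 451 reads in every library and all 9 passed the filter on low counts in all 5 comparisons. In the double knockout libraries Nr0b2 stood at 0.594, 1.16 and 1.68 CPM against 15.04, 28.2 and 13.7 CPM in wild type. Nr1h4 stood at 65.0, 55.7 and 58.5 CPM against 153, 161 and 117 CPM, so both targeted transcripts were lower in each double knockout library. One library went against its label: Cyp2b10, the standard CAR target, was at 3786 CPM in library 1 of the corn oil label and at 10.3 CPM in library 2 of that label. The TCPOBOP libraries held 3465 and 3079 CPM. The comparison with TCPOBOP is therefore given with and without that library. Hepatocyte markers summed to 42709.8 to 124142 CPM over all 26 libraries (4 of 5 listed markers were found by symbol, Tf was not), so hepatocyte transcripts were abundant in each. Markers of Kupffer cells and macrophages summed to 86.5 to 524 CPM in whole liver and 34.9 to 67.7 CPM in isolated hepatocytes. Those of sinusoidal endothelium summed to 70.7 to 253 and 39.0 to 97.7 CPM, and those of stellate cells to 104 to 462 and 8.99 to 38.1 CPM. For cholangiocytes the sums were 23.7 to 135 and 9.81 to 16.2 CPM, and for other leukocytes 4.50 to 34.6 and 0.660 to 2.47 CPM. In these bulk samples fewer cells of a type and less RNA per cell cannot be told apart.

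Set on a scale per kilobase of the principal transcript, Hnf4a, Rxra and Nr1i3 held the upper places and Ahr and Nr3c1 were among the lower ones. Hnf4a ranked first or second in all 10 groups, with group means from 127 CPM per kb in high fat hepatocytes to 240.0 CPM per kb in wild type liver. Rxra ranked below it, at 73.0 to 122 CPM per kb, and below Nr1i3 too in wild type, sham and both floxed groups (103 against 157 CPM per kb in wild type). Nr1i3 ranged most among these abundant members, from 68.0 CPM per kb in the corn oil livers to 311 CPM per kb in high fat hepatocytes. It ranked first in both hepatocyte groups (261 CPM per kb on chow, against 204 for Hnf4a). That place depends on the length used: counted over all exon bases, Nr1i3 ranked between 2 and 5. Ppara stood at 60.0 CPM per kb in chow hepatocytes and 53.4 in high fat hepatocytes, where it ranked 4, and between ranks 6 and 8 elsewhere. Nr1i2 and Nr1h3 took ranks 4 to 7 and Nr5a2 ranks 4 to 6. The place of Nr5a2 depends on length too: over all exon bases it ranked 7 or 8, in some groups below Ahr or Nr3c1. Ahr (7.25 to 23.2 CPM per kb, ranks 7 to 9) and Nr3c1 (8.73 to 14.7 CPM per kb, ranks 8 and 9) were the lowest per kilobase of principal transcript. The exception was TCPOBOP, where Ppara ranked 8 and Ahr 7. The experiments differ in strain, age, feeding, tissue and preparation, so levels between experiments carry no test.

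**Figure D1:**
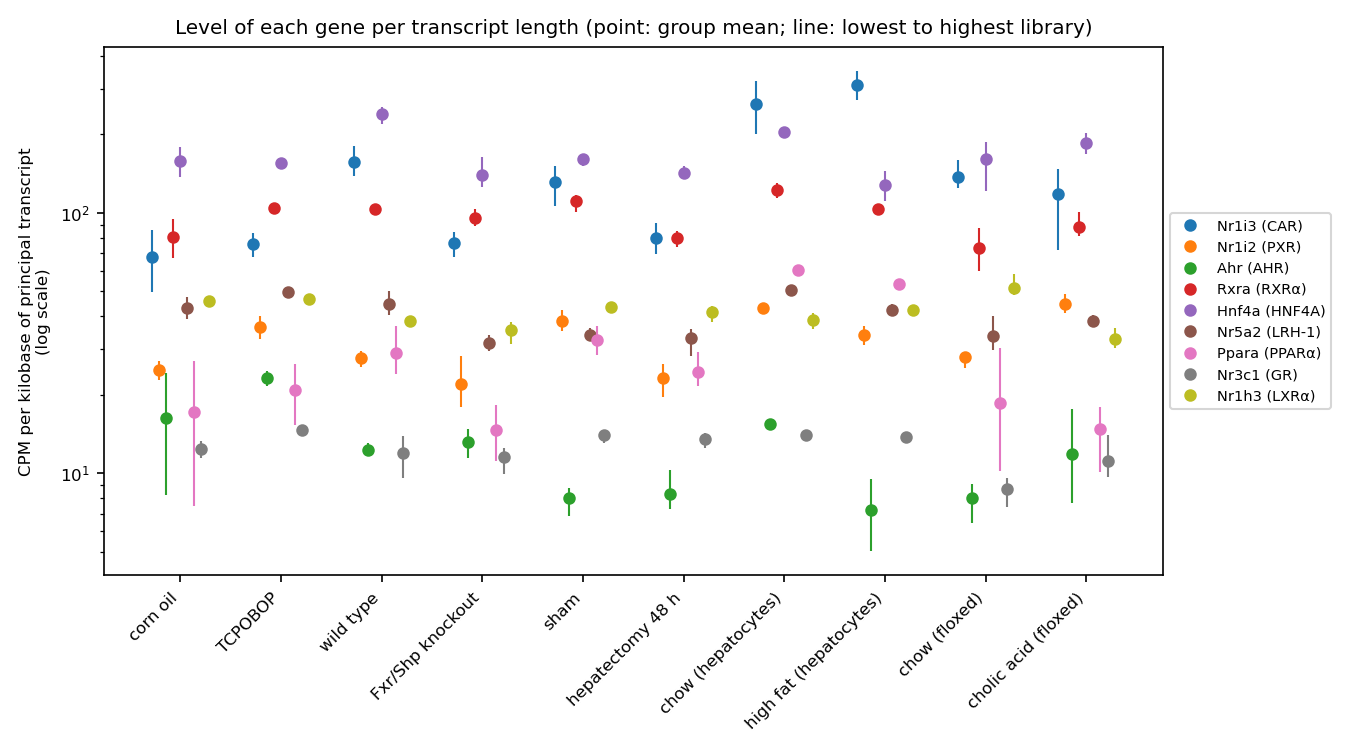
Mean level of each of the 9 genes in each of the 10 groups, in CPM per kilobase of the principal transcript on a log axis. Each line runs from the lowest to the highest library of the group. Hnf4a, Rxra and Nr1i3 take the upper places and Ahr and Nr3c1 the lower ones.

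Across libraries the members differed in how far they spread. Ppara ran from 25.6 CPM (corn oil 1) through a median of 84.6 to 208 CPM (chow hepatocytes 2), a ratio of 8.10. Nr1i3 ran from 70.4 CPM (corn oil 1) through 178 to 495 CPM (high fat hepatocytes 2), a ratio of 7.04. Ahr spanned 27.8 CPM (high fat hepatocytes 1) to 136 CPM (TCPOBOP 2) with a median of 57.0 and a ratio of 4.91. The other 6 stayed within narrower bounds: Nr1i2 45.9 to 124 CPM (ratio 2.70), Hnf4a 482 to 1107 CPM (2.29), and Rxra 293 to 641 CPM (2.19). The narrowest were Nr3c1 47.6 to 94.7 CPM (1.99), Nr1h3 59.2 to 114 CPM (1.92) and Nr5a2 52.4 to 94.4 CPM (1.80). The lowest Ppara and the lowest Nr1i3 were thus read in the same library, the one that goes against its label.

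**Figure D2:**
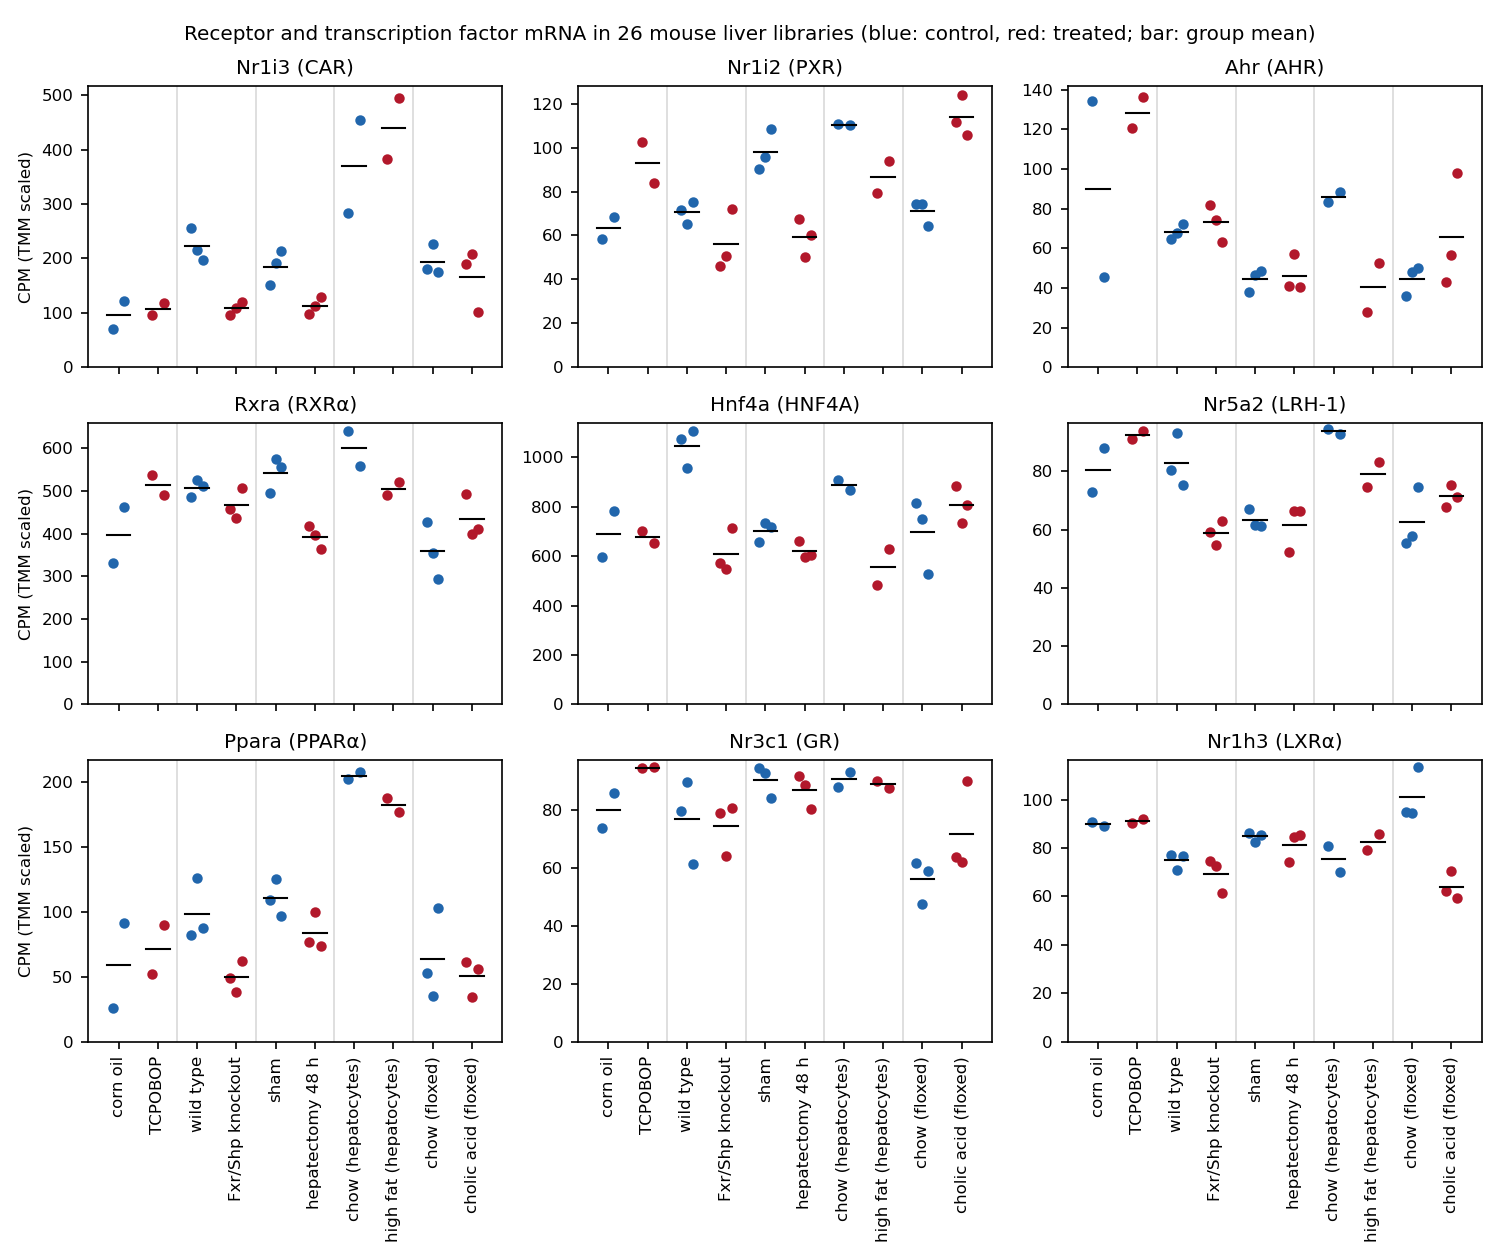
CPM of each of the 9 genes in every library, 1 panel per gene with its own axis from 0; blue points are control libraries, red points treated or mutant libraries and bars group means. Nr1i3, Hnf4a, Nr5a2 and Ppara lie lower in each double knockout library than in each wild type library, and Nr1i2 lies higher in each cholic acid library than in each chow library.

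Most of the members that changed had less RNA. In the double knockout, 4 of the 9 fell and none rose (edgeR quasi-likelihood test, with p adjusted after Benjamini-Hochberg and called under 0.05). There 40.4% of 13473 genes were called, 21% raised and 19.4% lowered. Multiply aligned reads, which are counted for no gene, moved with these groups, at 43.4, 44.1 and 43.2% of all reads in wild type and 26.7, 26.9 and 25.5% in the double knockout. In the other experiments they were 16.6 to 25.1%. They were also lower on cholic acid (16.6 to 17.6%) than on its chow (23.8 to 25.1%). The same held for high fat (19.01 and 19.31%) against chow hepatocytes (24.6 and 23.8%). After hepatectomy they were 18.87 to 20.05%, against 20.11 to 20.69% in sham. Their part in the results was not tested. After hepatectomy 3 fell and none rose, where 30.7% of 13753 genes were called, 16.4% raised and 14.3% lowered. In high fat hepatocytes 2 fell and none rose, where 24% of 13892 genes were called, 12.9% raised and 11.1% lowered. On cholic acid 1 rose and none fell, where 4.77% of 12577 genes were called, 2.27% raised and 2.5% lowered. With TCPOBOP none was called, where 0% of 12785 genes were called. At an unadjusted p under 0.05 there were 751 genes and 1 member, Nr1i2, and DESeq2's Wald test called 102 genes and no member. The median log2 change of the 9, beside that of all genes tested, was -0.33 beside -0.01 in the double knockout, -0.18 beside 0.01 after hepatectomy and -0.25 beside 0.01 on high fat. It was 0.21 beside 0.01 on cholic acid and 0.25 beside -0.02 with TCPOBOP. Leaving out single libraries moved the counts of members called in 3 of these comparisons by over 1.5 times. TCPOBOP gave 1 without corn oil 1 or corn oil 2, the high fat comparison gave 1 without library 1 of the high fat group, and cholic acid gave 2 without chow 3 and 0 without any of its other libraries.

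**Figure D3:**
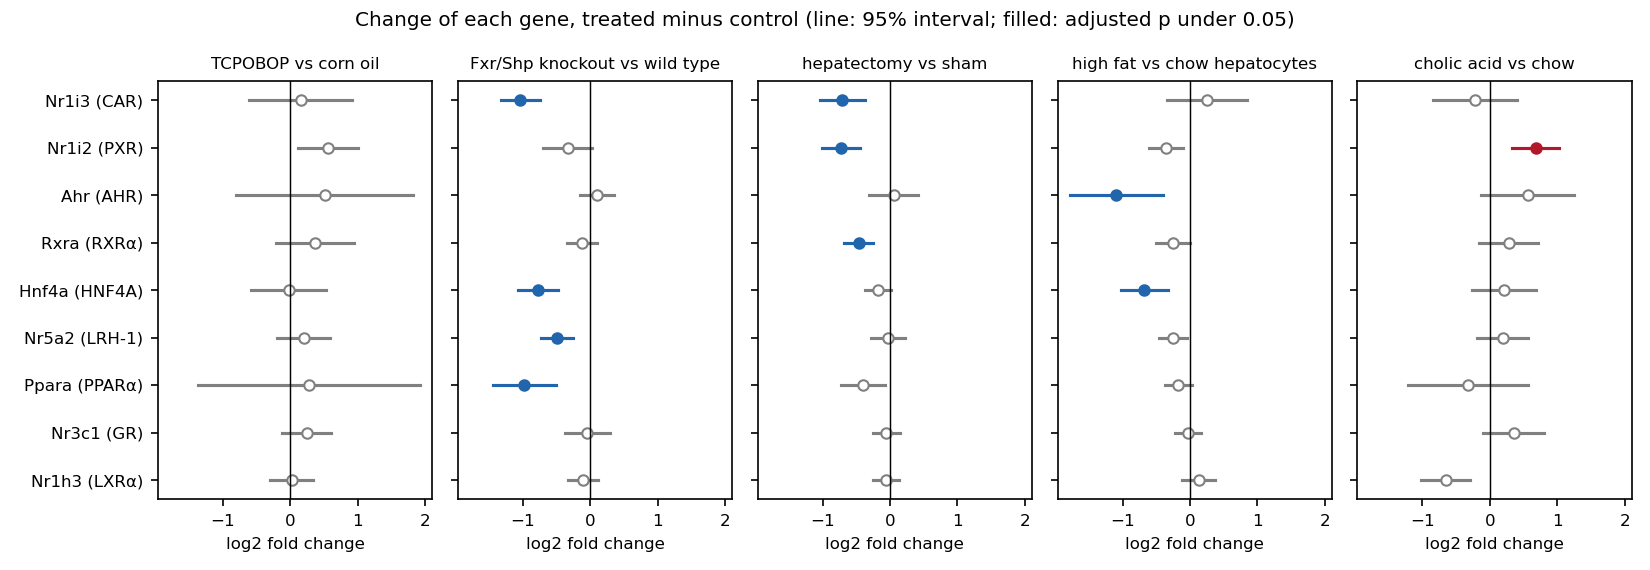
Log2 fold change of each of the 9 genes, treated minus control, with its 95% interval, in 1 panel per comparison. Filled points passed an adjusted p under 0.05, red where raised and blue where lowered, and open points did not. The called points are 4 lowered in the double knockout, 3 lowered after hepatectomy, 2 lowered on high fat and 1 raised on cholic acid.

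Nr1i3, which encodes the CAR receptor that TCPOBOP activates, fell in the double knockout and after hepatectomy. It read 255, 215 and 196 CPM in wild type and 95.7, 109.7 and 119 CPM in double knockout liver (222 ± 30.1 against 108 ± 11.8 CPM, SD, n = 3 each). Every double knockout library lay below every wild type library, and the log2 change was -1.04 (SE 0.13, 95% interval -1.32 to -0.75, 2.05-fold lower, edgeR adjusted p = 0.00037). Sham livers read 151, 191 and 213 CPM and hepatectomy livers 98.4, 112 and 129 CPM, again without overlap (log2 change -0.71, SE 0.15, 1.63-fold lower, edgeR adjusted p = 0.0087). Both falls were called with any single library left out, between -1.12 and -0.93 and between -0.84 and -0.60.

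The other experiments showed no called change of Nr1i3. Chow hepatocytes read 283 and 454 CPM and high fat hepatocytes 383 and 495 CPM, which overlap (log2 change 0.25, SE 0.24, edgeR adjusted p = 0.475), although without chow hepatocytes 2 the change was 0.63 (adjusted p = 0.046). Floxed mice on chow read 180.1, 226 and 176 CPM and on cholic acid 189.6, 208 and 102 CPM, with 1 low library in the treated group (log2 change -0.22, 95% interval -0.84 to 0.40, edgeR adjusted p = 0.661). Corn oil livers read 70.4 and 122 CPM and TCPOBOP livers 95.9 and 118 CPM, all TCPOBOP values lying between those of corn oil (0.15, SE 0.30, edgeR adjusted p = 0.981). Because most exon bases of Nr1i3 lie opposite Tomm40l, the use of strand in counting matters for it. The library kit keeps strand, but use of strand in counting is not stated. In all, 13 genes lie wholly inside exons of an opposite-strand gene with at least 100000 reads. Counting without strand would leave reads from these positions unassigned. Over the 26 libraries together the 13 genes were given 0 to 299 reads (median 36), and 3 of them had 0. Tomm40l itself ran from 4.40 to 15.1 CPM over all libraries and was called only on high fat (-0.81, edgeR adjusted p = 0.020).

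Nr1i2, which encodes PXR, the broad sensor of drugs, steroids and bile acids, was called in both directions. On cholic acid it rose from 74.4, 74.3 and 64.5 CPM to 112, 124 and 106 CPM (71.1 ± 5.71 against 114 ± 9.49 CPM, n = 3 each), so that every treated library lay above every control. The log2 change was 0.68 (SE 0.15, 95% interval 0.33 to 1.03, 1.60-fold higher, 95% interval 1.26 to 2.04, edgeR adjusted p = 0.044). With 1 library left out the size stayed between 0.61 and 0.73. The adjusted p was then 0.094 without chow 1, 0.138 without chow 2, 0.135, 0.147 and 0.108 without cholic acid 1, 2 and 3, and 0.030 without chow 3.

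After hepatectomy Nr1i2 fell from 90.1, 95.7 and 108 CPM to 67.4, 50.2 and 60.1 CPM, with no overlap. The log2 change was -0.73 (SE 0.12, 95% interval -1.01 to -0.44, 1.66-fold lower, edgeR adjusted p = 0.0036), and it was called with any single library left out. Wild type livers read 71.7, 65.4 and 75.1 CPM and double knockout livers 45.9, 50.6 and 72.0 CPM. Double knockout library 3 lay inside the wild type range, and the log2 change of -0.33 (SE 0.16) had an edgeR adjusted p of 0.127; without that library it was -0.54 (adjusted p = 0.0017). Chow hepatocytes read 111 and 110.2 CPM and high fat hepatocytes 79.2 and 94.1 CPM, apart but not called (-0.35, SE 0.10, edgeR adjusted p = 0.057; -0.49 and 0.041 without high fat 2). Corn oil livers read 58.3 and 68.6 CPM and TCPOBOP livers 103 and 83.8 CPM, also apart and not called (0.56, SE 0.17, edgeR adjusted p = 0.812).

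Among 16 genes listed as CAR or PXR targets, all tested, 11 rose and none fell on cholic acid, and 9 rose and 1 fell in the double knockout. In each the median log2 change lay above that of all genes (1.86 and 0.69, against 0.01 and -0.01). Counts for this and the later lists stand beside the shares of all genes called. These were 40.4% in the double knockout, 30.7% after hepatectomy, 24% on high fat and 4.77% on cholic acid. No list was tested against them. On cholic acid the glutathione transferase Gstm3 went from 56.5, 66.1 and 96.3 CPM to 2943, 6606 and 6775 CPM (6.22, edgeR adjusted p = 0.0019). The P450 gene Cyp2c55 went from 7.04, 16.6 and 9.31 to 115, 341 and 326 CPM (4.57, edgeR adjusted p = 0.0039). The efflux pump gene Abcc4 went in the double knockout from 1.07, 2.09 and 2.84 to 46.0, 41.6 and 76.6 CPM (4.79, edgeR adjusted p = 2.2e-05), and Gstm3 rose by 4.18 (edgeR adjusted p = 1.9e-05). Thus in the double knockout most listed targets rose while Nr1i3 itself fell.

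Genes of the same list fell in the hepatectomy and high fat experiments, with 6 of 16 and 8 of 16 genes lowered and none raised (medians -0.34 and -0.48). Por, the electron donor of the P450 enzymes, went from 665, 1027 and 1011 CPM to 569.8, 399.8 and 299.8 CPM after hepatectomy (-1.09, edgeR adjusted p = 0.013). The carboxylesterase gene Ces2a changed by -0.91 (edgeR adjusted p = 0.0021). In high fat hepatocytes Cyp3a11, the main PXR-inducible P450 gene of mouse liver, went from 2963 and 3665 CPM to 128 and 145 CPM (-4.60, edgeR adjusted p = 0.00039). Cyp2b10 went from 3.89 and 5.93 CPM to 0.350 and 0.787 CPM (-3.11, edgeR adjusted p = 0.0081). Of the counts for this list, that after hepatectomy was 3 without sham 2 or sham 3, and that on cholic acid was 6 without chow 1 or chow 2 and 7 without cholic acid 2 or cholic acid 3. The double knockout and high fat counts moved less.

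Ahr, the sensor of planar aromatic compounds, was called in high fat hepatocytes alone among the 5 comparisons of all libraries. It read 83.3 and 88.2 CPM on chow and 27.8 and 52.7 CPM on high fat, where both treated libraries were lower than both controls but differed from each other. The log2 change was -1.09 (SE 0.28, 95% interval -1.78 to -0.40, 2.13-fold lower, edgeR adjusted p = 0.041). It was -1.05 (adjusted p = 0.052) without chow hepatocytes 2, -0.70 (0.024) without high fat 1 and -1.63 (0.0015) without high fat 2, and DESeq2's Wald test gave an adjusted p of 0.058.

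In whole liver Ahr was read at 64.5, 67.7 and 72.2 CPM in wild type and at 82.0, 74.2 and 63.3 CPM in the double knockout (0.10, SE 0.11, edgeR adjusted p = 0.478). Sham livers gave 38.0, 46.6 and 48.7 CPM and hepatectomy livers 40.9, 57.2 and 40.3 CPM (0.05, SE 0.16, edgeR adjusted p = 0.823). The groups overlapped in both. On cholic acid 1 library stood apart, with 42.8, 56.8 and 97.8 CPM against 35.8, 47.8 and 50.3 CPM (0.56, SE 0.30, edgeR adjusted p = 0.305), and without cholic acid 3 the change was 0.16. Corn oil livers read 134 and 45.7 CPM and TCPOBOP livers 121 and 136 CPM, the high control being the library that goes against its label.

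Of 8 AHR targets listed, 6 were tested in each whole liver comparison and 5 in hepatocytes. In hepatocytes Cyp1a2, the constitutive hepatic member of the Cyp1 family, fell from 662 and 605 CPM to 129.7 and 110.01 CPM on high fat (-2.40, edgeR adjusted p = 0.00078). The quinone reductase gene Nqo1 rose from 3.36 and 3.68 CPM to 9.53 and 8.27 CPM (1.34, edgeR adjusted p = 0.0052). On cholic acid 1 of 6 rose, Nqo1 (5.01, 5.22 and 5.33 to 21.2, 39.4 and 28.8 CPM, edgeR adjusted p = 0.0026). Of the 6 tested in the double knockout 3 rose, among them Cyp1b1 (2.00, edgeR adjusted p = 0.0014) and Ugt1a6a (1.08, 0.022). After hepatectomy 1 of 6 fell, Cyp1a2 (-0.28, edgeR adjusted p = 0.031). The medians were -0.03 on high fat, 0.95 on cholic acid, 0.54 in the double knockout and -0.14 after hepatectomy. The Cyp1a2 call after hepatectomy was lost without sham 2, sham 3 or hepatectomy 2.

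Rxra, which encodes the obligate DNA partner of CAR, PXR, PPAR alpha and LXR alpha, fell after hepatectomy. It went from 496, 575 and 556 CPM to 418, 397 and 364 CPM (542 ± 41.2 against 393 ± 27.0 CPM, n = 3 each) with no overlap. The log2 change was -0.47 (SE 0.09, 95% interval -0.68 to -0.25, 1.38-fold lower, edgeR adjusted p = 0.0073), called with any single library left out.

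The remaining Rxra values were not called. Wild type and double knockout livers overlapped at 485, 525 and 512 against 457, 437 and 507 CPM (-0.12, SE 0.10, edgeR adjusted p = 0.361). Chow and high fat hepatocytes were apart at 641 and 559 against 491 and 519.9 CPM (-0.25, SE 0.10, edgeR adjusted p = 0.128). Cholic acid livers read 493, 399 and 412 CPM and their controls 428, 354 and 293 CPM, which overlap (0.28, SE 0.19, edgeR adjusted p = 0.423). TCPOBOP livers at 537 and 491 CPM lay above corn oil livers at 330.4 and 463 CPM (0.37, SE 0.22, edgeR adjusted p = 0.912).

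Among 17 listed partners, chaperones and cofactors of these receptors, 2 rose and 3 fell in the double knockout (median log2 change -0.17) and 4 fell after hepatectomy (-0.15). On the diets, 2 rose and 2 fell on high fat (-0.11) and 2 rose on cholic acid (0.14). Of all genes tested, 40.4, 30.7, 24 and 4.77% were called in these comparisons, in the same order. Arnt, the DNA partner of AHR, went from 31.2, 35.4 and 26.7 CPM in wild type to 52.4, 52.0 and 48.5 CPM in the double knockout (0.71, edgeR adjusted p = 0.0013). The histone acetyltransferase gene Ep300 changed by -0.57 (edgeR adjusted p = 0.0056). Ppargc1a, a coactivator of HNF4 alpha and PPAR alpha, fell from 56.5, 70.4 and 64.9 CPM to 32.8, 14.8 and 9.84 CPM after hepatectomy (-1.74, edgeR adjusted p = 0.011). It rose from 7.33, 9.90 and 10.3 CPM to 19.6, 20.01 and 18.6 CPM on cholic acid (1.08, edgeR adjusted p = 0.016). Rxrb, a paralog of Rxra, fell after hepatectomy (29.2, 32.1 and 31.9 against 22.97, 21.3 and 20.8 CPM, edgeR adjusted p = 0.0036). Its other paralog Rxrg rose on high fat from 3.19 and 2.43 CPM to 5.93 and 4.93 CPM (0.95, edgeR adjusted p = 0.023). The corepressor gene Nrip1 rose by 1.05 on cholic acid (edgeR adjusted p = 0.021) and the coactivator gene Ppargc1b changed by -1.30 on high fat (edgeR adjusted p = 0.028). The counts were 3 without double knockout 1, 2 without sham 2 and 2 without high fat 2. On cholic acid they were 1 without chow 1 and 0 without chow 2 or any of the cholic acid libraries.

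Hnf4a, which encodes the receptor that holds the hepatocyte expression program, fell in the double knockout and in high fat hepatocytes. Wild type livers read 1073, 957 and 1107 CPM and double knockout livers 571, 547 and 713 CPM (1046 ± 78.3 against 610.2 ± 89.9 CPM, n = 3 each). The groups did not overlap, and the log2 change was -0.78 (SE 0.13, 95% interval -1.07 to -0.48, 1.71-fold lower, edgeR adjusted p = 0.0018). Leaving out any 1 library kept the call, at -0.89 to -0.70.

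Hepatocytes from chow-fed mice read 909 and 867 CPM for Hnf4a and those from high fat-fed mice 482 and 628 CPM. They did not overlap either (log2 change -0.68, SE 0.14, 1.60-fold lower, edgeR adjusted p = 0.023), but the adjusted p was 0.057 (-0.50) without high fat 1. Hepatectomy livers at 659.8, 598 and 605 CPM and sham livers at 657, 735 and 719.7 CPM overlapped (-0.18, SE 0.08, edgeR adjusted p = 0.144). The cholic acid experiment gave 815, 752 and 529 CPM on chow and 884, 734 and 808 CPM on cholic acid (0.21, SE 0.20, edgeR adjusted p = 0.572). Values with corn oil were 596 and 782 CPM and with TCPOBOP 703 and 653 CPM (-0.02, 95% interval -0.58 to 0.53, edgeR adjusted p = 0.995).

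Of 11 genes listed as HNF4 alpha targets, 1 rose and 2 fell in the double knockout, 1 rose and 5 fell after hepatectomy, 3 rose and 1 fell on high fat and 3 fell on cholic acid. The medians were -0.16, -0.26, 0.10 and -0.53. In the same order, 40.4, 30.7, 24 and 4.77% of all genes tested were called. Pklr, the liver pyruvate kinase gene, rose from 41.9, 47.8 and 56.6 CPM to 116, 119 and 136 CPM in the double knockout (1.35, edgeR adjusted p = 8.4e-05). It also rose by 1.06 on high fat (edgeR adjusted p = 0.036), and Hnf4a itself fell in both of these experiments. It fell after hepatectomy from 358, 367 and 377 CPM to 99.8, 92.2 and 104 CPM (-1.90, edgeR adjusted p = 6.5e-06). The apolipoprotein gene Apoa4 rose on high fat from 181 and 159.9 CPM to 1811 and 1085 CPM (3.09, edgeR adjusted p = 0.0031). The coagulation factor gene F12 changed by -0.68 in the double knockout (edgeR adjusted p = 0.0008) and Apoc3 by -1.16 on cholic acid (edgeR adjusted p = 0.016). The count of this list was 7 without double knockout 3, 1 without high fat 1, and on cholic acid 1 without chow 2 or any of the cholic acid libraries.

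Nr5a2, which encodes LRH-1, an activator of bile acid synthesis genes, fell in the double knockout. It read 80.3, 93.2 and 75.4 CPM in wild type and 59.2, 54.8 and 62.9 CPM in double knockout liver (83.0 ± 9.21 against 59.0 ± 4.07 CPM, n = 3 each). All double knockout values were lower, by a log2 change of -0.49 (SE 0.10, 95% interval -0.73 to -0.26, 1.41-fold lower, edgeR adjusted p = 0.0058), between -0.56 and -0.40 and still called with 1 library left out. Sham and hepatectomy livers overlapped at 67.2, 61.4 and 61.1 against 52.4, 66.4 and 66.4 CPM (-0.04, SE 0.11, edgeR adjusted p = 0.835). High fat hepatocytes, at 74.7 and 83.1 CPM, lay below chow hepatocytes at 94.4 and 92.9 CPM without being called (-0.25, SE 0.09, edgeR adjusted p = 0.085). The values were 55.5, 57.8 and 74.7 CPM on chow and 67.9, 75.4 and 71.2 CPM on cholic acid (0.19, SE 0.17, edgeR adjusted p = 0.528). They were 72.7 and 88.1 CPM with corn oil and 91.0 and 93.7 CPM with TCPOBOP (0.20, SE 0.15, edgeR adjusted p = 0.943).

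Among 7 genes listed as LRH-1 targets, 2 rose and 2 fell in the double knockout (median 0.29), 1 rose and 3 fell after hepatectomy (-0.45) and 2 rose and 2 fell on cholic acid (-0.48). On high fat 1 of 7 had an unadjusted p under 0.05, beside 5563 of all 13892 genes, and DESeq2 called none. By edgeR none was called there either (median -0.01). That count was 2 without chow hepatocytes 1. Cyp8b1, the sterol hydroxylase gene that sets cholic acid synthesis and stands on the HNF4 alpha list too, fell from 651, 708 and 1189 CPM to 2.08, 1.58 and 1.65 CPM on cholic acid (-8.90, edgeR adjusted p = 6.3e-05). After hepatectomy it fell from 456, 550.3 and 527 CPM to 239, 168 and 103 CPM (-1.59, edgeR adjusted p = 0.0032). Cyp7a1, the rate-limiting enzyme of bile acid synthesis, fell from 109, 157 and 711 CPM to 1.24, 0.898 and 0.706 CPM on cholic acid (-8.42, edgeR adjusted p = 0.0032). Nr0b2, which encodes the repressor SHP, rose after hepatectomy from 4.93, 4.10 and 8.95 CPM to 13.3, 26.5 and 31.6 CPM (1.99, edgeR adjusted p = 0.0056). It is a targeted gene in the double knockout (-4.03, edgeR adjusted p = 0.00011). The sterol hydroxylases thus fell on cholic acid while the log2 changes of Hnf4a and Nr5a2 there were 0.21 and 0.19 and neither was called.

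Of 15 other liver transcription factors, 1 rose and 3 fell in the double knockout, 2 fell after hepatectomy, 2 rose and 2 fell on high fat and 2 fell on cholic acid. The median log2 changes were -0.31, 0.05, -0.03 and -0.20. Shares of all genes called were 40.4, 30.7, 24 and 4.77%, in the same order. Cebpb, an acute response factor of hepatocytes, fell in the double knockout from 248, 179.6 and 192 CPM to 55.9, 61.9 and 101 CPM (-1.50, edgeR adjusted p = 0.0011), and Gata4 rose by 0.69 (edgeR adjusted p = 0.0030). On cholic acid Foxa3, a forkhead factor of liver, fell from 63.9, 84.9 and 58.4 CPM to 22.6, 24.97 and 30.2 CPM (-1.41, edgeR adjusted p = 0.0098). Cebpa, a factor of the differentiated hepatocyte, fell from 414, 403 and 346 CPM to 243, 176 and 132 CPM (-1.08, edgeR adjusted p = 0.041). Cebpa also fell after hepatectomy (-0.30, edgeR adjusted p = 0.022) with Creb3l3 (-0.36, edgeR adjusted p = 0.022). In high fat hepatocytes Foxa3 fell (-1.06, edgeR adjusted p = 0.037) and Onecut1 rose (1.69, edgeR adjusted p = 0.029). Most of these counts rest on single libraries: 2 without double knockout 1, 0 without sham 2 or sham 3, 1 without hepatectomy 2, 1 without high fat 1 and 2 without high fat 2. On cholic acid the count was 1 without chow 1, chow 2 or cholic acid 3, 4 without chow 3 and 0 without cholic acid 2.

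Ppara, which encodes the fatty acid sensor that induces oxidation and ketone genes in fasting, fell in the double knockout. Wild type livers read 81.8, 126 and 87.4 CPM and double knockout livers 49.1, 38.2 and 62.3 CPM (98.4 ± 24.05 against 49.9 ± 12.1 CPM, n = 3 each). The highest double knockout value was below the lowest wild type value, and the log2 change was -0.98 (SE 0.21, 95% interval -1.45 to -0.51, 1.97-fold lower, edgeR adjusted p = 0.0059). It stayed within -1.16 to -0.77, and called, with any 1 library left out.

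Hepatectomy livers read 77.1, 99.7 and 74.1 CPM for Ppara and sham livers 109, 125 and 96.7 CPM. They overlapped, and the change of -0.40 (SE 0.14) had an edgeR adjusted p of 0.062, which was 0.020 (-0.55) without hepatectomy 2 and 0.039 by DESeq2's Wald test. High fat hepatocytes (188 and 177 CPM) lay just below chow hepatocytes (202 and 208 CPM) with a log2 change of -0.17 (SE 0.08, edgeR adjusted p = 0.180). The cholic acid experiment had a wide control group, at 52.5, 34.9 and 103 CPM against 61.4, 34.6 and 56.0 CPM on cholic acid (-0.32, 95% interval -1.21 to 0.56, edgeR adjusted p = 0.652). Corn oil livers read 25.6 and 91.8 CPM and TCPOBOP livers 52.1 and 90.04 CPM, so that the spread of the controls covered both treated values.

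Of 17 listed PPAR alpha targets, 5 rose and 4 fell in the double knockout (median -0.27), 5 fell after hepatectomy (-0.30), 2 rose and 3 fell on high fat (0.10) and 6 fell on cholic acid (-0.74). Pdk4, which blocks glucose oxidation in fasting, rose from 12.0, 9.43 and 13.1 CPM to 27.3, 27.7 and 36.6 CPM in the double knockout (1.41, edgeR adjusted p = 0.00026). On high fat it rose from 6.48 and 3.71 CPM to 10.7 and 10.02 CPM (1.03, edgeR adjusted p = 0.039). The hormone gene Fgf21 rose by 1.74 in the double knockout (edgeR adjusted p = 0.0026), so the 2 listed genes with the largest changes went up where Ppara went down. On cholic acid the fatty acid binding protein gene Fabp1 fell from 3345, 3381 and 4668 CPM to 1111, 855 and 1443 CPM (-1.74, edgeR adjusted p = 0.011), with Vnn1 at -1.20 (edgeR adjusted p = 0.011). Angptl4, a lipase inhibitor, fell after hepatectomy from 62.7, 104 and 107 CPM to 43.7, 25.8 and 24.7 CPM (-1.54, edgeR adjusted p = 0.0041), with the thiolase gene Acaa1b at -0.97 (edgeR adjusted p = 0.00039). The fatty acid hydroxylase gene Cyp4a10 fell on high fat from 1473 and 1083 CPM to 812 and 583 CPM (edgeR adjusted p = 0.034). The count was 14 without double knockout 3, 3 without sham 3, 8 without hepatectomy 1 and 2 without high fat 1. On cholic acid it was 3 without chow 1, chow 2 or cholic acid 1 and 2 without cholic acid 2 or cholic acid 3.

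Nr3c1, which encodes the glucocorticoid receptor, was called in no comparison. Wild type livers read 79.5, 89.7 and 61.5 CPM and double knockout livers 78.9, 64.1 and 80.5 CPM (-0.04, 95% interval -0.38 to 0.29, edgeR adjusted p = 0.831). Sham livers read 94.5, 92.7 and 84.1 CPM and hepatectomy livers 91.8, 88.6 and 80.2 CPM (-0.06, 95% interval -0.26 to 0.14, edgeR adjusted p = 0.649). Chow and high fat hepatocytes read 88.0 and 93.1 against 90.1 and 87.5 CPM (-0.03, 95% interval -0.22 to 0.16, edgeR adjusted p = 0.818). In these 3 experiments the groups overlapped. Cholic acid livers (63.6, 62.0 and 89.9 CPM) lay above their controls (61.8, 47.6 and 59.1 CPM), by 0.36 on the log2 scale (SE 0.20, edgeR adjusted p = 0.321). TCPOBOP livers (94.5 and 94.7 CPM) lay above corn oil livers (73.8 and 85.8 CPM), by 0.25 (SE 0.14, edgeR adjusted p = 0.902).

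Although Nr3c1 RNA was not called, many of 13 listed glucocorticoid receptor targets were. Of these, 2 rose and 6 fell in the double knockout (median -0.57), 7 fell after hepatectomy (-0.62) and 1 rose and 5 fell on high fat (-0.35). On cholic acid none was called (0.04), where 4 of 13 had an unadjusted p under 0.05, beside 2904 of all 12577 genes. DESeq2 called 2 there, beside 1379 of all genes. Without chow 3 edgeR called 2. The gluconeogenic gene Pck1 fell from 5401, 4848 and 6646 CPM to 1385, 1344 and 1669.9 CPM in the double knockout (-1.94, edgeR adjusted p = 4.1e-05), while the metallothionein gene Mt2 rose by 2.19 (edgeR adjusted p = 0.00051). After hepatectomy G6pc, the last enzyme of glucose output, fell from 208, 536 and 558 CPM to 74.6, 57.8 and 66.6 CPM (-2.71, edgeR adjusted p = 0.0009), and Igfbp1 changed by -3.13 (edgeR adjusted p = 0.0074). In high fat hepatocytes Fkbp5, a chaperone that feeds back on the receptor, went from 267 and 193 CPM to 23.02 and 54.1 CPM (-2.58, edgeR adjusted p = 0.012). Zbtb16 went from 96.1 and 91.6 CPM to 7.77 and 19.9 CPM (edgeR adjusted p = 0.011).

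Nr1h3, which encodes the oxysterol sensor LXR alpha, was called in no comparison of all libraries and came nearest on cholic acid. Livers on chow read 94.7, 94.7 and 114 CPM and on cholic acid 62.5, 70.3 and 59.2 CPM (101 ± 10.9 against 64.0 ± 5.71 CPM, n = 3 each). The groups did not overlap, with a log2 change of -0.66 (SE 0.16, 95% interval -1.02 to -0.30) and an edgeR adjusted p of 0.053. It was called without chow 3 (-0.57, edgeR adjusted p = 0.034) and by DESeq2's Wald test (adjusted p = 0.0078), and with 1 library left out ran from -0.73 to -0.57.

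In the other experiments the log2 changes of Nr1h3 lay between -0.11 and 0.13, and none was called. Wild type livers gave 77.1, 70.9 and 76.7 CPM and double knockout livers 74.5, 72.4 and 61.5 CPM (-0.11, 95% interval -0.33 to 0.11, edgeR adjusted p = 0.396). Sham livers gave 86.4, 82.6 and 85.4 CPM and hepatectomy livers 74.4, 84.5 and 85.4 CPM (-0.06, SE 0.08, edgeR adjusted p = 0.630). Hepatocytes gave 80.9 and 70.2 CPM on chow and 79.3 and 85.8 CPM on high fat (0.13, SE 0.10, edgeR adjusted p = 0.385). The 4 livers of the TCPOBOP experiment lay closest together, at 90.6 and 89.2 CPM with corn oil and 90.5 and 91.9 CPM with TCPOBOP (0.02, 95% interval -0.29 to 0.34, edgeR adjusted p = 0.992).

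Of 11 listed LXR targets, 7 rose and none fell in the double knockout (median 0.95), while 8 fell and none rose after hepatectomy (-0.65). Scd1, the stearoyl-CoA desaturase gene, went from 461, 536 and 354 CPM to 7095, 4973 and 5968 CPM in the double knockout (3.74, edgeR adjusted p = 4.8e-06). After hepatectomy it went from 21585, 13339 and 13760.4 CPM to 5129.6, 2855 and 5252 CPM (-1.88, edgeR adjusted p = 0.0018). The fatty acid synthase gene Fasn rose from 47.0, 45.1 and 49.7 CPM to 350.1, 393 and 280.2 CPM in the double knockout (2.85, edgeR adjusted p = 2.3e-06). It fell from 1594, 1395 and 1434 CPM to 287, 654 and 551 CPM after hepatectomy (-1.57, edgeR adjusted p = 0.0034). On high fat 4 rose and 1 fell (0.23). The sterol efflux gene Abcg1 rose from 0.857 and 0.662 CPM to 3.71 and 2.44 CPM (2.02, edgeR adjusted p = 0.0099), and Fasn fell from 206 and 277 CPM to 99.4 and 100.1 CPM (edgeR adjusted p = 0.0063). On cholic acid 2 rose (0.19), the genes of a sterol exporter. They were Abcg5 (58.9, 62.7 and 68.4 to 304, 226 and 162 CPM, edgeR adjusted p = 0.0081) and Abcg8 (102, 88.6 and 69.9 to 400.02, 294 and 227 CPM, edgeR adjusted p = 0.0094). Nr1h3 itself was lower in each cholic acid library there. The cholic acid count was 4 without chow 3, and the other 3 counts moved less.

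**Figure D4:**
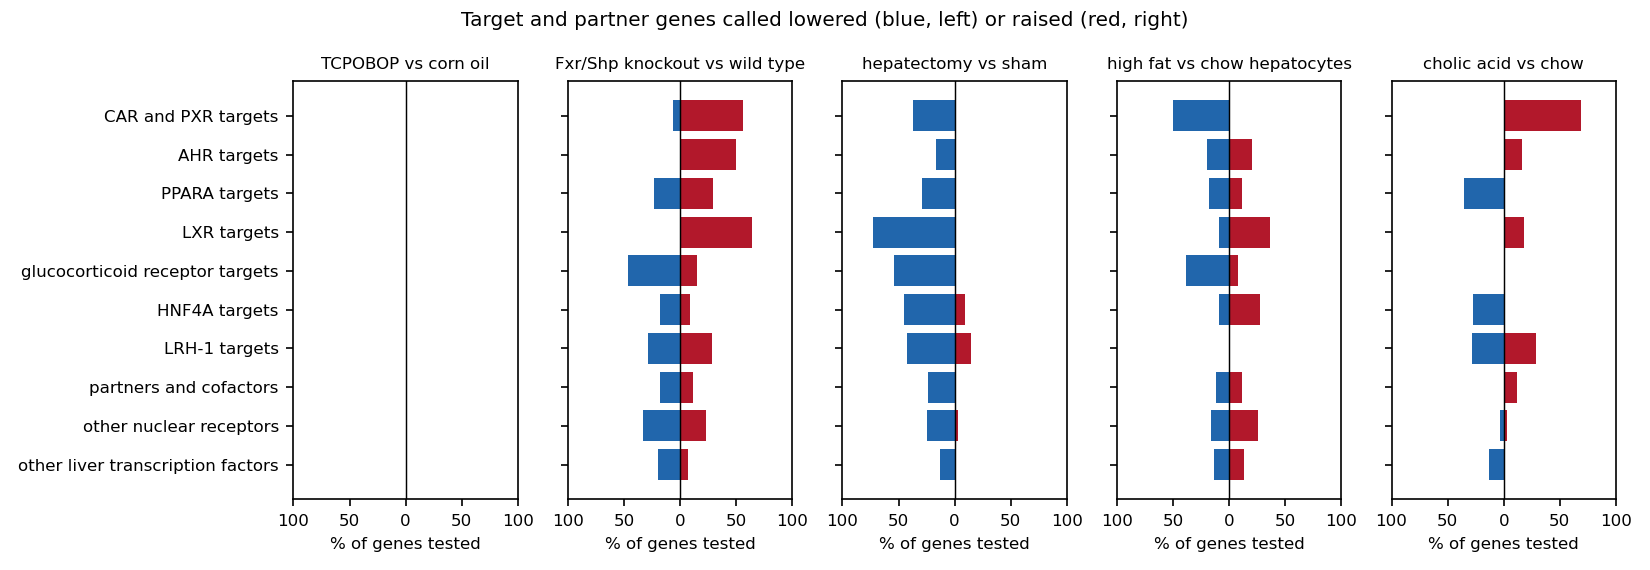
Percent of the tested genes of each of 10 gene lists that were called lowered (left of 0, blue) or raised (right of 0, red) in each of the 5 comparisons. CAR and PXR targets were raised in the double knockout and on cholic acid, LXR targets were raised in the double knockout and lowered after hepatectomy, and no listed gene was called with TCPOBOP when all 4 libraries were used.

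Of 41 other nuclear receptor genes, 29 to 32 were tested in a comparison. Of 30 in the double knockout 7 rose and 10 fell, and of 32 after hepatectomy 1 rose and 8 fell. The list includes the targeted genes Nr1h4 and Nr0b2, whose fall in the double knockout was set by the genotype. On high fat 8 rose and 5 fell of 31 and on cholic acid 1 rose and 1 fell of 30. The medians were -0.19, -0.22, 0.01 and 0.03. On cholic acid Nr0b2 rose from 14.4, 16.9 and 18.2 CPM to 89.6, 42.6 and 60.3 CPM (1.96, edgeR adjusted p = 0.0098). Nr1h4 fell there from 120.2, 143 and 139.6 CPM to 63.6, 80.9 and 55.3 CPM (-1.01, edgeR adjusted p = 0.022). After hepatectomy the immediate early receptor genes Nr4a1 (-2.05, edgeR adjusted p = 0.0012) and Nr4a3 (-2.21, 0.020) fell. On high fat the orphan receptor gene Esrrb rose from 0.143 and 0.158 CPM to 0.928 and 1.09 CPM (edgeR adjusted p = 0.0066). Nr1h5 was also called there (edgeR adjusted p = 0.016), with chow values of 0.0357 and 0.0315 CPM, under the level of 3 reads. The count was 5 without sham 2, 4 without sham 3, 8 without high fat 1 and 7 without high fat 2. On cholic acid it was 1 without chow 2, cholic acid 1 or cholic acid 3 and 5 without chow 3.

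Clock genes were followed because several of these receptors cycle over the day and the labels give no hour of collection. Of 15 listed, 2 rose and 3 fell in the double knockout, 1 rose and 3 fell of 14 tested after hepatectomy and 4 fell of 14 on high fat. None of 15 was called on cholic acid by edgeR, where DESeq2 called 1. An unadjusted p under 0.05 was found there for 1 of 15, beside 2904 of all 12577 genes. Shares of all genes called in these comparisons were 40.4, 30.7, 24 and 4.77%, in the same order. The medians of the clock genes were -0.42, -0.56, -0.25 and -0.18. Their summed level was 525 to 594 CPM in wild type and 372, 363 and 579.7 CPM in double knockout libraries 1, 2 and 3. Only double knockout 3 thus lay inside the wild type range. It was 868 to 938 CPM in sham and 475 to 677 CPM in hepatectomy liver, and 980.4 to 1057 CPM on chow and 877 to 889 CPM on high fat in hepatocytes. In the cholic acid experiment chow 3 stood apart at 709 CPM, against 421 and 454 CPM in the other chow libraries and 386 to 454 CPM on cholic acid. The genes named by the rule are Npas2 (2.69) and Arntl (0.79) in the double knockout, Per1 (-1.39) and Clock (1.25) after hepatectomy and Nr1d1 (-1.29) and Ciart (-0.77) on high fat, all called by edgeR. The count was 3 without wild type 1 or wild type 2, 12 without double knockout 3, and 10 without hepatectomy 3. It was 2 without chow hepatocytes 1, high fat 1 or high fat 2, and 1 without chow 3 of the cholic acid experiment. The part of collection time in the changes of the 9 genes was not tested.

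Markers of other liver cells moved with the groups as well. In high fat hepatocytes, where Ahr and Hnf4a fell, 6 of 6 sinusoidal endothelial markers rose (summed 39.0 to 40.6 CPM on chow, 94.6 to 97.7 CPM on high fat). There too 5 of 6 stellate markers rose (8.99 to 15.2 and 36.1 to 38.1 CPM) and 4 of 6 Kupffer markers rose (34.9 to 38.2 and 61.7 to 67.7 CPM). Of 2 cholangiocyte markers tested, edgeR called none and DESeq2 called 2. Both had an unadjusted p under 0.05, as did 5563 of all 13892 genes. The 1 leukocyte marker tested rose, and up to 3 markers of each of these types were at 0 in a chow library. Where Nr1i3, Hnf4a, Nr5a2 and Ppara fell, in the double knockout, 4 of 6 stellate markers (184 to 306 CPM in wild type, 401 to 462 CPM in double knockout) and 4 of 5 cholangiocyte markers (27.3 to 38.0 and 57.4 to 135 CPM) rose. So did 2 of 6 endothelial, 1 of 6 Kupffer and 1 of 3 leukocyte markers. Of 4 hepatocyte markers 1 fell there, with sums of 80199 to 106382 CPM in wild type and 61589 to 81672 CPM in double knockout. After hepatectomy 1 hepatocyte marker rose and 2 fell (119428 to 124142 and 91251 to 105426 CPM). In that experiment 2 endothelial markers fell, 2 stellate markers and 1 cholangiocyte marker rose, and no Kupffer marker was called. Of the 6 Kupffer markers 1 had an unadjusted p under 0.05, as did 5816 of all 13753 genes. On cholic acid 1 of 6 Kupffer markers (86.5 to 246 CPM on chow, 207 to 349 CPM on cholic acid) and 1 of 6 stellate markers rose. The part of cell composition in these results was not tested.

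Because a call in one experiment and its absence in another show no difference, 3 differences between effects were tested in fits over both experiments. The first and second of them share the cholic acid libraries, and those with a double knockout effect share its libraries. The experiments of the first also differ in feeding and floxed alleles, so treatment and experiment cannot be told apart in it. Against cholic acid, the double knockout effect was lower for Nr1i2 (difference of log2 changes -1.01, 95% interval -1.49 to -0.53, edgeR adjusted p = 0.010) and Hnf4a (-0.98, -1.51 to -0.46, adjusted p = 0.017). The same held for Nr5a2 (-0.68, -1.09 to -0.26, adjusted p = 0.035). These are 3 of the 9, where 13.9% of 13935 genes were called, 7.18% with a positive and 6.74% with a negative difference. The difference for Nr1i3, -0.81, was not called (edgeR adjusted p = 0.114), nor was that for Ppara, -0.65 (0.418). The Nr1i2 difference was called in 12 of 12 fits with 1 library left out and that of Hnf4a in 10 of 12, the exceptions being double knockout 1 (adjusted p = 0.054) and double knockout 2 (0.057). The Nr5a2 difference was called in only 4 of 12. It was lost without wild type 1 or 2, double knockout 1 or 2, chow 1 or 2 or cholic acid 2 or 3, with adjusted p from 0.060 to 0.102. Conversely Nr1i3 (-1.06, 0.011) was called without cholic acid 3, Ppara (-1.19, 0.047) without chow 3 and Nr1h3 (0.64, 0.041) without double knockout 3.

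The hepatectomy effect differed from the cholic acid effect for Nr1i2 (-1.40, 95% interval -1.81 to -0.99, edgeR adjusted p = 0.00076) and Rxra (-0.74, -1.20 to -0.28, adjusted p = 0.038). It also differed for Nr1h3 (0.60, 0.24 to 0.97, edgeR adjusted p = 0.034). These are again 3 of the 9, where 13% of 13985 genes were called, 8.01% with a positive and 5.01% with a negative difference. For Nr1i2, which fell in one experiment and rose in the other, the difference was called in 12 of 12 fits with 1 library left out. That of Rxra was called in 3 of 12, without chow 1, chow 3 or cholic acid 2 (adjusted p elsewhere 0.052 to 0.099). That of Nr1h3 was called in 5 of 12, and it was lost without any of the sham libraries, hepatectomy 2, hepatectomy 3, cholic acid 1 or cholic acid 3 (0.060 to 0.094). These experiments also differ in strain, feeding and the time of the controls, so treatment and experiment cannot be told apart in this difference.

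Set against high fat hepatocytes, the double knockout effect was lower for Nr1i3 (-1.28, 95% interval -1.90 to -0.66, edgeR adjusted p = 0.011) and higher for Ahr (1.20, 0.54 to 1.86, adjusted p = 0.022). These are 2 of the 9, where 16.1% of 14280 genes were called, 7.98% with a positive and 8.11% with a negative difference. Hnf4a fell in both experiments, and the difference of its changes was -0.09 with a 95% interval of -0.55 to 0.36 (edgeR adjusted p = 0.798). The Nr1i3 difference was lost without high fat 2 (0.054), and that of Ahr without wild type 1 (0.052), chow hepatocytes 1 (0.055) or chow hepatocytes 2 (0.070). Ppara, at -0.80 (edgeR adjusted p = 0.077), was called without double knockout 3 (-0.98, 0.018). The experiments differ in tissue and preparation (whole liver or isolated hepatocytes), age (12 or 16 weeks) and feeding (ad libitum or a 10 h fast). These and treatment cannot be told apart in this difference.

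Removing the corn oil library that goes against its label changed the TCPOBOP comparison. With corn oil 2 as the lone control, assumed to vary like the TCPOBOP group, edgeR called 1233 of 13190 genes (9.35%, 5.71% raised and 3.64% lowered). Of the 9 members 1 was called, Ahr, raised by 1.49 on the log2 scale (adjusted p = 0.00073). The other members were not called: Nr1i2 stood at 0.45 (adjusted p = 0.129), Rxra at 0.15, Nr1i3 at -0.18 and Ppara at -0.37. The 16 CAR and PXR targets had a median log2 change of 2.09. Their list holds Cyp2b10, the gene by which corn oil 1 was set aside, so a rise was largely fixed beforehand. Cyp2c55, also listed, stood at 1603 CPM in corn oil 1 and 17.2 CPM in corn oil 2. The lipid lists gave 1 PPAR alpha target raised and 12 of 17 lowered and 6 of 11 LXR targets lowered. The others gave 2 of 6 AHR targets raised, 3 glucocorticoid receptor targets raised, 1 HNF4 alpha target raised and 2 lowered, 2 LRH-1 targets lowered and no partner called. Among other nuclear receptors 2 rose and 4 fell of 31, among other liver factors 2 rose and 2 fell, and 1 clock gene fell.

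Without the library labelled corn oil 2 instead, 413 of 13139 genes were called (3.14%, 1.51% raised and 1.64% lowered), among them Ppara (1.47, edgeR adjusted p = 0.037). Nr1i3 (0.60, adjusted p = 0.088), Nr1i2 (0.68, 0.063) and Rxra (0.64, 0.061) were not called. Then 2 CAR and PXR targets rose and 2 fell, 4 PPAR alpha targets rose and 2 fell, 2 LXR targets fell, and 8 clock genes rose and 4 fell of 15. The glucocorticoid receptor list gave 4 raised and 2 lowered, the HNF4 alpha list 2 lowered, and the LRH-1 list 1 raised and 1 lowered. The other receptors gave 2 raised and 2 lowered of 29, and the other liver factors 1 raised. The summed clock genes stood at 299 CPM in corn oil 1, 683 CPM in corn oil 2 and 607 to 726 CPM with TCPOBOP, and the hepatocyte markers at 42709.8 and 93373 CPM in the corn oil libraries. With all 4 libraries no list had a called gene. Of all 12785 genes, 751 had an unadjusted p under 0.05, and DESeq2 called 102 genes. An unadjusted p under 0.05 was found for 2 of 16 CAR and PXR targets (median log2 change 0.71), 1 of 6 AHR, 2 of 16 PPAR alpha (-0.58), and 3 of 11 LXR targets (-0.52). It was also found for 3 of 13 glucocorticoid receptor, 2 of 11 HNF4 alpha and 3 of 7 LRH-1 targets, 1 partner, 4 other receptors, 2 other liver factors and 2 clock genes. DESeq2 called 2 CAR and PXR, 1 LXR, 2 glucocorticoid receptor and 1 HNF4 alpha targets, 1 clock gene and none of the other lists.

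The genes that tracked each member most closely over the 26 libraries, after each gene was centred on the mean of its experiment, were taken from 9536 genes as a description. For Nr1i3 they were Naa60 and Prodh (Pearson r 0.90 each) and Polg2 (0.86), for Nr1i2 D17Wsu92e (0.91), Adarb1 (0.89) and Ctif (0.87), and for Ahr Stt3a (0.82), Sec61a1 (0.77) and its target Cyp1a2 (0.76). Rxra went with Insr (0.86), Lpp (0.85) and Ctif (0.84), Hnf4a with Brpf3 (0.91) and Ubr2 (0.91), and Nr5a2 with Map2k6 (0.86) and Tlk1 (0.85). Ppara went with Oplah (0.81), Fam160b1 (0.80) and Mtmr1 (0.79), Nr3c1 with Hif1a (0.80), Nup98 (0.80) and Map4k5 (0.79), and Nr1h3 with Mkks (0.91), Pxmp2 (0.89) and Urad (0.89). Among the members the closest pair was Nr1i2 with Rxra (0.81), then Nr5a2 with Ppara (0.66), and the most opposed was Nr3c1 with Nr1h3 (-0.53). The libraries share their treatments and depth, so these values describe joint variation only. Over the 22 libraries without the TCPOBOP experiment, 2 of the 3 genes were the same for Nr1i3, Hnf4a and Nr3c1, 1 for Nr1i2, Rxra, Nr5a2 and Nr1h3, and 0 for Ahr and Ppara.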

How the data were processed

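Per the labels' protocols, RNA of frozen whole liver or isolated hepatocytes was purified with RNeasy columns and made into libraries with a stranded TruSeq mRNA kit. The submitters' processing notes name bcl2fastq 2.17.1.14, Trimmomatic, STAR 2.4.2a, Picard 1.119 and HTSeq and the builds GRCm38 and mm10, without roles or order. The authors deposited 1 table of whole-number read counts per gene for 26 libraries, and 0 of its per-sample columns were left unused. Its 5 summary lines stayed out of library sizes: no-feature reads were 3.19 to 5.37% of all reads, ambiguous reads 1.02 to 3.73% and multiply aligned reads 16.6 to 44.1%. Use of strand in counting is not given in the sources used here. Symbols came from a mouse gene name table (47224 of 47643 identifiers matched), positions and lengths from GENCODE M21 and promoter windows from RefSeq.

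Groups were taken from the sample titles, and columns were matched by the sample number in the title. Each experiment was fitted alone: filterByExpr (minimum count 10 per library, scaled to its size, and 15 in total), TMM scaling and edgeR's quasi-likelihood test (edgeR 4.0.16, limma 3.58.1, R 4.3.3), with Benjamini-Hochberg adjustment over all genes tested and a threshold of 0.05. CPM values are TMM scaled within an experiment. The 3 differences were contrasts in fits over both experiments (10 or 12 libraries). Tables and figures used pandas 2.3.3 and matplotlib 3.10.9. The procedure was tested on simulated counts. Replicate libraries of a group differed by more than sampling noise in all pairs (chi-square per degree of freedom 8.14 to 211), so none was counted as a repeat.

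The 9 members, the 10 target and regulator lists, the clock list, the 6 marker lists and the rules were chosen with earlier results of these data known. The genes named are all members and, from each target, regulator and clock list and comparison, at most the 2 called genes with the largest absolute log2 fold change, with Nr1h4, Nr0b2 and Cyp2b10 as label checks. For likeness the rule took the 3 genes of highest Pearson r among those tested in all 5 comparisons with an average log2 CPM of at least 1. Some genes that these rules select are not reported here. Alternatives were DESeq2's size factors and Wald test (DESeq2 1.42.0), no filter, a replicate block, all 26 libraries in 1 fit and leaving out each library in turn.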

Additional observations from a re-analysis of the deposited data

Results flagged for a closer look

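The share of reads that the counting set aside as ambiguous enters no comparison above. It was taken of all reads, with the multiply aligned reads in the total. On that base the share was higher in treated or mutant libraries than in their controls in 4 of 5 experiments. It was 1.91 ± 0.070% of all reads in the double knockout against 1.09 ± 0.064% in wild type (SD, n = 3 each). After hepatectomy it was 3.54 ± 0.179% against 2.84 ± 0.055% in sham (n = 3 each). It was 2.08 ± 0.068% in high fat hepatocytes against 1.95 ± 0.093% on chow (n = 2 each) and 2.57 ± 0.238% on cholic acid against 2.02 ± 0.316% on chow (n = 3 each). Multiply aligned reads, a separate and larger class given above, were instead lower in the double knockout, after hepatectomy, on high fat and on cholic acid. They count in the total, so a lower share of them by itself raises the ambiguous share. Shares without them in the total were not taken. None of these differences was tested.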

How the results depend on the processing

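The labelled replicate numbers were not used as pairs in the main fits, and whether they mark pairs was not settled. Deviations of same-numbered libraries correlated at a mean of 0.128 (lowest pair 0.097) in the cholic acid experiment, 0.121 with TCPOBOP and 0.130 on high fat. The mean was 0.006 after hepatectomy and -0.079 in the double knockout. Each library correlated best with its own number in 6 of 6 cases on cholic acid, 0 of 6 in the double knockout and 2 of 6 after hepatectomy. It did in 4 of 4 with TCPOBOP and 4 of 4 on high fat, where 2 pairs give 1 correlation and its negative. A fit with that number as a block called 4763 genes and 4 members in the double knockout, 3664 and 4 after hepatectomy, 3693 and 3 on high fat, 480 and 0 on cholic acid and 0 with TCPOBOP; Nr1i2 had an adjusted p of 0.085 on cholic acid, and the difference of the double knockout and high fat effects for Nr3c1 was 0.00057 under the block instead of -0.0078.

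Other settings that moved a count by over 1.5 times were DESeq2's Wald test (102 genes with TCPOBOP, 1379 genes and 2 members on cholic acid), no filter (955 genes on cholic acid) and all 26 libraries in 1 fit (9 genes with TCPOBOP, 1735 genes and 1 member on high fat, 3132 genes and 2 members on cholic acid). Leaving out 1 library gave 0 to 1233 genes and 0 to 1 members with TCPOBOP, 3969 to 6024 and 4 to 5 in the double knockout, 2554 to 4217 and 3 to 4 after hepatectomy, 1141 to 2644 and 1 to 3 on high fat and 189 to 1345 and 0 to 2 on cholic acid. For the differences it gave 1325 to 2350 genes and 1 to 4 members (double knockout minus cholic acid), 1089 to 2495 and 1 to 3 (hepatectomy minus cholic acid) and 1269 to 2768 and 1 to 3 (double knockout minus high fat). The cause of these moves was not tested.

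Directions turned 32 times over 16 results, 0 of which were called with all libraries. Leaving out 1 library, the log2 changes ran with TCPOBOP from -0.18 to 0.60 for Nr1i3, -0.064 to 1.49 for Ahr, -0.20 to 0.19 for Hnf4a and -0.37 to 1.47 for Ppara. They ran in the double knockout from -0.19 to 0.076 for Nr3c1, and after hepatectomy from -0.13 to 0.14 for Ahr, -0.094 to 0.072 for Nr5a2 and -0.095 to 0.0047 for Nr1h3. On high fat the ranges were -0.055 to 0.63 for Nr1i3 and -0.073 to 0.0069 for Nr3c1, and on cholic acid -0.42 to 0.040 for Nr1i3 and -0.62 to 0.21 for Ppara. Differences ran from -0.61 to 0.22 for Ppara (hepatectomy minus cholic acid), and from -0.19 to 0.15 for Nr1i2, -0.34 to 0.10 for Hnf4a and -0.14 to 0.10 for Nr3c1 (double knockout minus high fat). The members have at least 451 reads in each library. The biological coefficient of variation was 24.7% with TCPOBOP, the library that goes against its label included, 26.4% on cholic acid and 13.1 to 15.6% elsewhere. The parts of depth, spread and number of libraries in these ranges were not tested.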
